A study of Mus musculus with 4 samples.

Results

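Interferon-stimulated antiviral effectors are the genes that a cell switches on when interferon reaches it, and whose products detect, block or degrade viruses. The 42 members were taken by name, and all 42 were found among the 23235 genes of the deposited tables. Of these, 41 reached 1 FPKM in at least 1 column (FPKM count sequenced fragments per length of transcript, scaled for the size of the library). The exception was Oas1g, with at most 0.918 FPKM. Bulk RNA came from acute myeloid leukaemia carrying NRASG12V and the Mll-AF9 fusion, grown for 20 days in SCID/Beige mice, hosts with inherited defects of lymphocytes and of natural killer function. The 4 libraries, 1 per group, had NRASG12V on (the column headed 0 hours) or off for 48 h, 72 h and 96 h under doxycycline, and every one carries the same genotype. No library analysed here received doxycycline with NRASG12V still on, so the drug, elapsed time and the switch cannot be told apart. The labels give neither the organ sampled nor the number of mice behind a library, and host cells may be present. With bulk RNA, fewer cells of a type and less RNA per cell cannot be told apart. Nras, the mouse gene of the switched oncogene, had 23.6 FPKM on and 16.5, 17.4 and 18.8 FPKM off at 48 h, 72 h and 96 h (limma, Benjamini-Hochberg adjusted p = 0.127). Reads of a human transgene may not be counted there, so this checks the labels weakly.

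Type I interferons bind a receptor on the cell surface that activates the kinases Jak1 and Tyk2. These phosphorylate Stat factors, which join Irf9 into a complex that binds the interferon-stimulated response element, a short purine-rich motif near the start of many interferon-responsive genes. Some of the products, such as Ifih1 and the protein made from Ddx58 (RIG-I), sense viral RNA and lead to more interferon. Others act on the virus directly, and a few, such as Usp18, turn the response down again. Interferon signalling is also known to act on blood stem cells and on leukaemia cells without any virus.

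With NRASG12V off, the antiviral genes were higher as a group, unevenly so among members. The list was chosen with earlier results of these data known, so its counts beside those of all genes describe it and do not test it. Isg15, a ubiquitin-like protein joined to other proteins, and Rsad2 (viperin), an enzyme that makes a chain-ending nucleotide, had the largest rises that passed the test. Changes are log2((off FPKM + 1)/(on FPKM + 1)), a scale on which low genes appear to change less than they do. Tests were made with limma across 11965 genes, setting the 3 off libraries against the on library, with Benjamini-Hochberg adjustment at 0.05. In that test 21 of the 42 members rose, none fell, 20 did not pass and Oas1g was not tested, where 11.8% of all genes tested rose and 15.2% fell. The 21 rises lay between 0.75 and 3.04 on the log2 scale. Members below 1 FPKM in the on library were tested only because an off library was higher, which favours a rise. Among the 33 members that reached 1 FPKM in the on library, 15 rose and none fell, against 9.98% of genes with that level that rose and 16.2% that fell. With the median change of expressed genes set to 0, 22 members and 14.4% of all genes tested rose. The calls depend on the model: with hours as a covariate 20 members and 20.6% of all genes tested rose, 14 of these members were among the 21, and Isg15, Usp18, Ifit1, Ifit3, Oas3, Oasl1 and Lgals3bp lost their call, while without a filter on low values limma called none (17 had an unadjusted p under 0.05). The test counts differences between times as spread and has no replicate of the on library, and since the labels do not say whether the libraries come from different mice, its p-values cover no more than the spread among these 3 off libraries.

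**Figure D1:**
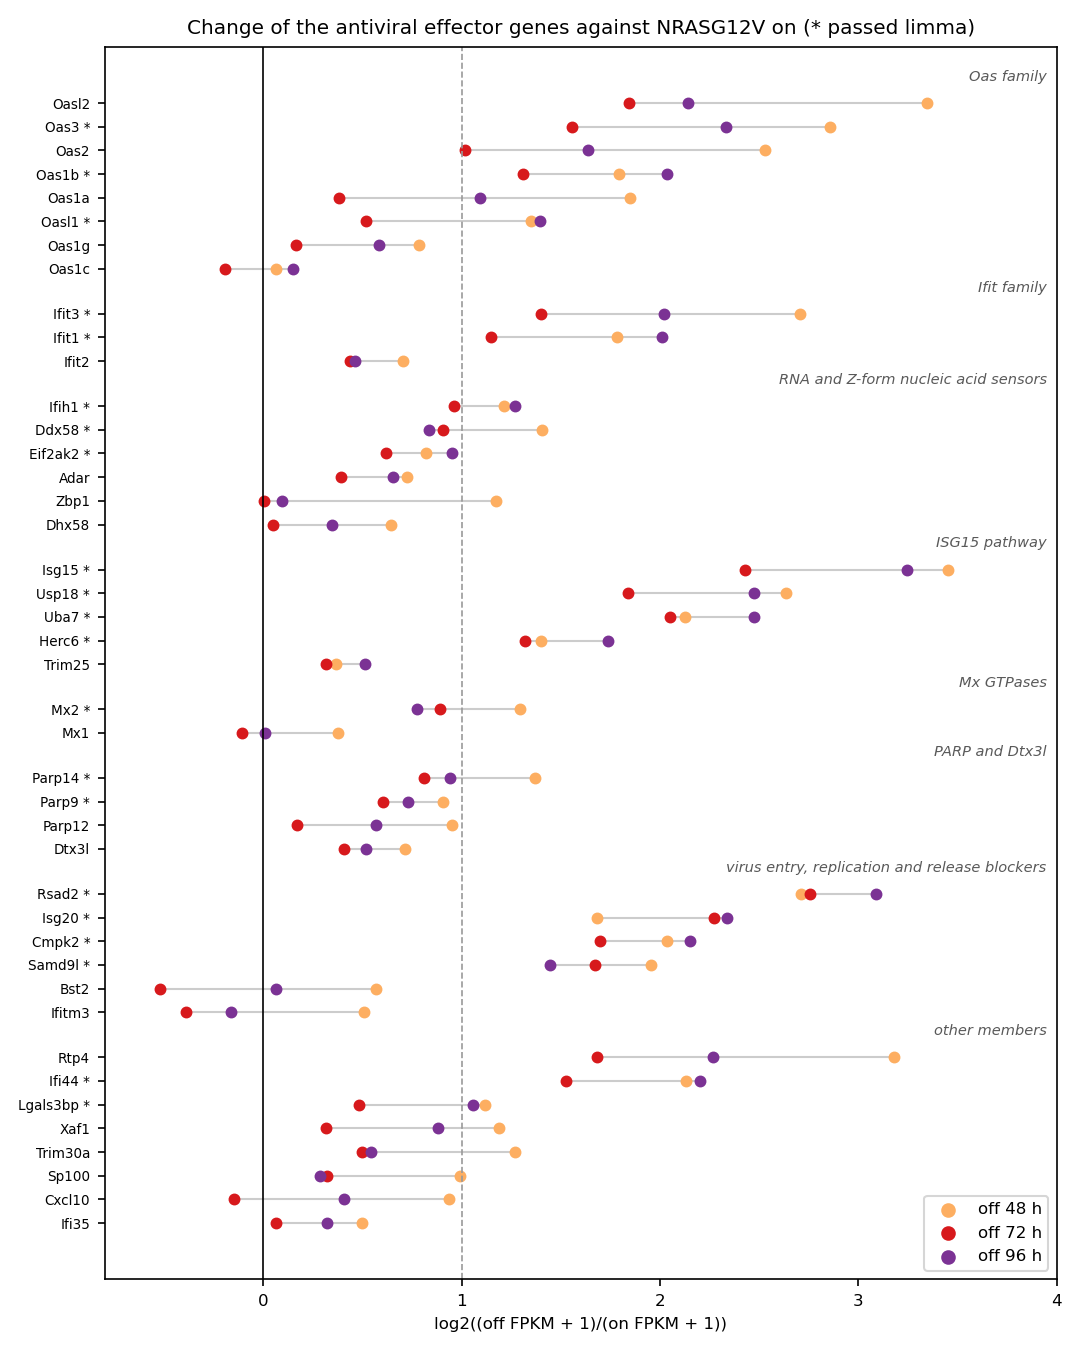
Change of each of the 42 members against the on library on the log2(FPKM + 1) scale, with 1 point per off library (48 h, 72 h and 96 h), grouped by role. The solid line marks no change and the dashed line a 2-fold rise; an asterisk marks the 21 genes that passed limma. The 72 h point is the leftmost in 36 of 42 genes.

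At single times, where there is 1 library per side and no test, a gene was counted at a 2-fold difference. Among the 33 members at 1 FPKM or more in the on library, 18 were at least 2-fold higher at 48 h, 10 at 72 h and 13 at 96 h. Of all genes at that level, 4.24%, 5.78% and 6.39% were at least 2-fold higher at those times. Their median changes were 1.17, 0.48 and 0.83, beside -0.17, -0.11 and -0.09 for all genes of that level. Over all 42 members the counts were 26, 16 and 20, beside 4.84%, 6.52% and 7.3% of the genes tested. No member was 2-fold lower at any time, against 4.67%, 5.72% and 8.02% of the genes tested. In 16 of 42 members the difference reached 2-fold at all 3 times (3.62% of genes tested), and in 10 of the 33 (3.33%). All 3 off libraries lay above the on library in 37 of 42 members (33.3% of genes tested) and in 28 of the 33 (30.0%). The 3 comparisons share the on library.

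The response motif was searched in the promoters of the members, to place the sequences beside the values. RefSeq promoters (GRCm38.p6, from 250 bases before to 50 after the annotated start) were found for 32 of the 42 members. The letters GAAA, any 2 bases and GAAA again, on either strand and with overlapping matches counted, occurred in 15 of these 32 (46.9%), against 324 of 8538 genes tested that have a promoter in the table (3.79%). Of the members that rose, 8 of 16 with a promoter held a match, and of the other members 7 of 16. A match is a description of the letters and not a shown binding site, and a promoter without a match may hold other forms of the element. The 200 bases before the start follow for the largest rises that limma called and that have a promoter (Isg15, Rsad2, Oas3, Uba7). They also follow for Ifit3, which holds 2 separate matches, and for 3 copies of Oas1. All run 5′ to 3′ on the gene's strand in lower case, with the matches in capitals. They lie at chr4:156200819-156201018 (minus strand), chr12:26456453-26456652 (minus strand), chr5:120777660-120777859 (minus strand), chr9:107975367-107975566 (plus strand), chr19:34583329-34583528 (plus strand), chr5:120907526-120907725 (minus strand), chr5:120887614-120887813 (minus strand) and chr5:120812515-120812714 (minus strand).
Isg15: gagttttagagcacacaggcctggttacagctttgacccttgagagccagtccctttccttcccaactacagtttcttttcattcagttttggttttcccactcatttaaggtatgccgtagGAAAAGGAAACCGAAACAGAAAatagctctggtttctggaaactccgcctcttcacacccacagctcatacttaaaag
Rsad2: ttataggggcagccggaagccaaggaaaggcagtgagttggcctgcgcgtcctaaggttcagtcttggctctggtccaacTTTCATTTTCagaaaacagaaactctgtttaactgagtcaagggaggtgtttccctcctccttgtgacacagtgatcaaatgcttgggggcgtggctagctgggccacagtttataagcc
Oas3: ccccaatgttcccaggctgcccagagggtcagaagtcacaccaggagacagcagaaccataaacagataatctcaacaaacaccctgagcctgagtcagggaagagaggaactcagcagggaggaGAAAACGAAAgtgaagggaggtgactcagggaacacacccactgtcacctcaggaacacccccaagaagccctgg
Uba7: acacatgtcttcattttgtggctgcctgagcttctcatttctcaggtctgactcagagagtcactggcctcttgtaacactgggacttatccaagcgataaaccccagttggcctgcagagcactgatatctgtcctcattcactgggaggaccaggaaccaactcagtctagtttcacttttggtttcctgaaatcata
Ifit3: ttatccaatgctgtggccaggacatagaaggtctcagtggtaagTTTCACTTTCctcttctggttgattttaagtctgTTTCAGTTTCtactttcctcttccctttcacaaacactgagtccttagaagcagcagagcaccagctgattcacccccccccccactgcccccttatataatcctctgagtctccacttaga
Oas1a: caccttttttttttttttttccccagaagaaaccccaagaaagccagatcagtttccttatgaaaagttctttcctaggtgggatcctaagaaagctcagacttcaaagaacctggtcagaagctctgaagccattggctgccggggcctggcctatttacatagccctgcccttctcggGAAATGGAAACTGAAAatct
Oas1g: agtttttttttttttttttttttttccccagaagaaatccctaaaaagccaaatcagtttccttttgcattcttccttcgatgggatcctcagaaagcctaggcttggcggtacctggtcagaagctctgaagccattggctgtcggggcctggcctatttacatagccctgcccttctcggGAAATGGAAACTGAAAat
Oas1c: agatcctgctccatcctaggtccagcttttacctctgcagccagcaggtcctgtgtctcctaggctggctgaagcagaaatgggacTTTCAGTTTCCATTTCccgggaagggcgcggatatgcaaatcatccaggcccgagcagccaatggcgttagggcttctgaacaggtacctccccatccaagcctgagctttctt
Isg15 held 3 overlapping matches, beginning at positions -78, -72 and -66 from the start. Ifit3 held 2 on the reverse strand at -156 and -122, and Rsad2 and Oas3 1 each at -120 and -75. Uba7 held none in this window. Isg20, next by size of rise (2.10, against 2.04 for Ifit3), held none in its promoters and is not printed. Oasl2 had a larger mean change (2.44) than Oas3 or Uba7 but was not called by limma. It held no match in its promoter and is not printed either. The promoters of Oas1a and Oas1g were the same at 85.3% of 306 aligned positions, and Oas1a and Oas1c shared 49.3% of 359. Oas1a and Oas1g both held an overlapping pair of matches just before the start. Oas1c held an overlapping pair too, on the reverse strand at -114 and -108.

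**Figure D2:**
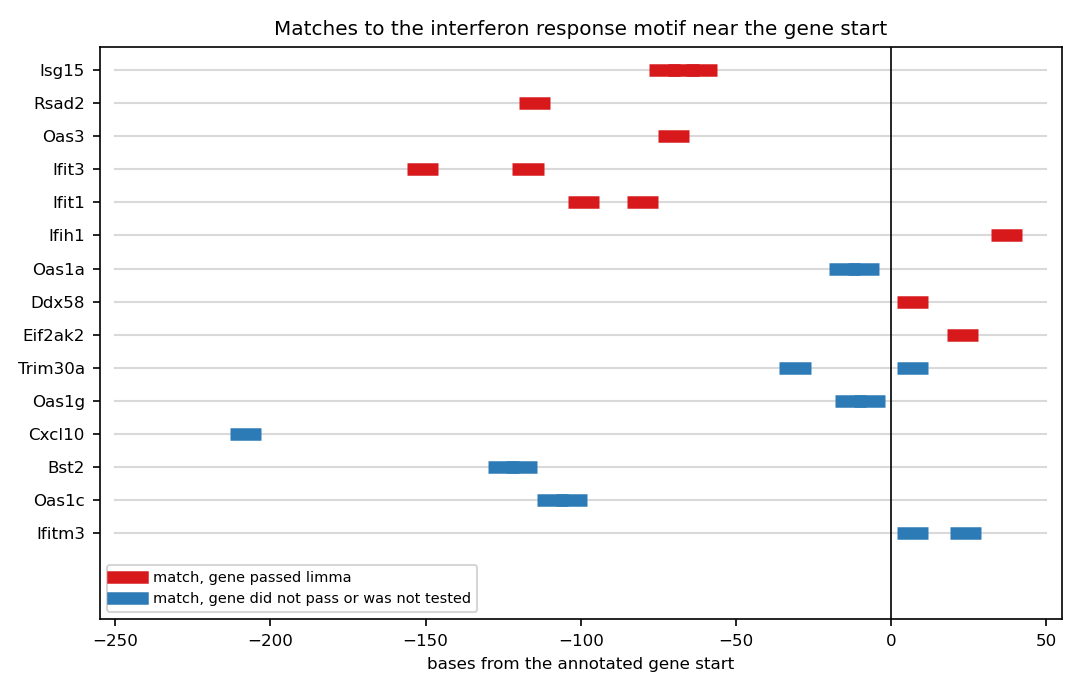
Positions of the matches in the promoters of the 15 members that hold at least 1, in bases from the annotated gene start (0), ordered from the largest mean change at the top. Red bars are matches in genes that rose in the limma test and blue bars those in genes that did not pass or were not tested; overlapping matches run together. For Trim30a, matches at 2 annotated starts are drawn on 1 line, each against its own start.

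Among the sensors, Ifih1 (MDA5) and Ddx58 (RIG-I), helicases that recognise viral RNA, and the RNA-dependent kinase Eif2ak2 (PKR) rose, and 3 of 6 members did not pass. Ifih1 had 2.44 FPKM in the on library and 6.98, 5.70 and 7.30 FPKM at 48 h, 72 h and 96 h, a mean change of 1.15 ± 0.16 (SD, n = 3 off libraries; limma, Benjamini-Hochberg adjusted p = 0.00559). Ddx58 had 2.29 FPKM on and 7.71, 5.17 and 4.87 FPKM at the 3 times off (1.05 ± 0.31, adjusted p = 0.0176, limma). For both genes every off library held more than 2 times the FPKM of the on library. Eif2ak2 had 9.31 FPKM on and 17.2, 14.8 and 18.9 FPKM off (0.80 ± 0.17, limma adjusted p = 0.0218). Dhx58 (LGP2), a helicase that modulates the other pair, had 6.95 FPKM on and 11.4, 7.205 and 9.09 FPKM off. The RNA editing enzyme Adar had 12.5 FPKM on and 21.3, 16.7 and 20.3 FPKM off, with a mean change of 0.59 ± 0.18 that did not pass limma (adjusted p = 0.0617). Adar lay above the on library at all 3 times, by less than 2-fold. Zbp1, which binds Z-form nucleic acids and can start cell death, had 3.79 FPKM on and 9.79, 3.80 and 4.12 FPKM off. Its difference came from the 48 h library alone, and the other off libraries were within 0.1 of the on library on the log2 scale.

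Active Oas enzymes bind double-stranded RNA and make a small messenger in response, and RNA levels do not show which members are active. Oasl1 and Oasl2 are counted in the same family. Of 8 genes, Oas3, Oas1b and Oasl1 rose, 4 did not pass and Oas1g was not tested; 5 of the 8 were below 1 FPKM in the on library. Oas3 had 1.597 FPKM on and 17.8, 6.64 and 12.1 FPKM off at 48 h, 72 h and 96 h (2.25 ± 0.65, limma adjusted p = 0.0210, and 0.161 without the 96 h library). Oasl2 had 0.953 FPKM on and 18.9, 6.01 and 7.62 FPKM off. It had the largest mean change of the family, 2.44 ± 0.80, and did not pass limma (adjusted p = 0.0746); its off libraries lay far apart. Oas2 had 0.725 FPKM on and 8.96, 2.50 and 4.36 FPKM off (1.73 ± 0.76, limma adjusted p = 0.132). Oas1b had 0.684 FPKM on and 4.83, 3.17 and 5.91 FPKM off (1.71 ± 0.37, limma adjusted p = 0.00408). Oasl1 had 0.664 FPKM on and 3.25, 1.38 and 3.38 FPKM off (1.09 ± 0.50, limma adjusted p = 0.0430). Without the 48 h library Oasl1 had an adjusted p of 0.113 and without the 96 h library of 0.0625 (limma). Among the Oas1 copies, Oas1a had 2.35 FPKM on and 11.1, 3.36 and 6.13 FPKM off, with a mean change of 1.11 ± 0.73 (limma adjusted p = 0.237). Oas1g had 0.114 FPKM on and 0.918, 0.246 and 0.670 FPKM off, and Oas1c had 1.23 FPKM on and 1.33, 0.947 and 1.47 FPKM off. Oas1c was the flattest of the 8, with a mean change of 0.0056 ± 0.18. Levels of Oas1a and Oas1g are uncertain, since 57.6% of the 50-base stretches of Oas1a transcripts and 54.7% of those of Oas1g also occur in transcripts of other genes, mainly in each other. In all 8 genes the 72 h library was the lowest of the off libraries, and 5 of them peaked at 48 h.

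The Ifit proteins bind viral RNA ends and translation factors. Ifit1 and Ifit3 rose from levels under 1 FPKM, and Ifit2, the most abundant in the on library, did not pass. Ifit3 had 0.425 FPKM on and 8.29, 2.76 and 4.77 FPKM off (2.04 ± 0.65, limma adjusted p = 0.0373, and 0.180 without the 96 h library). Ifit1 had 0.529 FPKM on and 4.26, 2.38 and 5.15 FPKM off (1.65 ± 0.45, limma adjusted p = 0.00730, and 0.0799 with hours as a covariate). Ifit2 had 3.74 FPKM on and 6.71, 5.42 and 5.52 FPKM off (0.53 ± 0.15, limma adjusted p = 0.0718). All 3 off libraries lay above the on library for each of the 3 genes, and 72 h was the lowest of them. Ifit3 shares 51.2% of its 50-base stretches with its copy Ifit3b, so its level is uncertain too.

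Of the 5 members counted as the Isg15 pathway, Isg15 itself among them, 4 rose, where 11.8% of all genes tested rose. Isg15 and Usp18 were highest at 48 h, and Uba7 and Herc6 at 96 h. Isg15 had 17.7 FPKM on and 204, 99.5 and 176 FPKM off at 48 h, 72 h and 96 h, a mean change of 3.04 ± 0.54 (limma adjusted p = 0.00185, and 0.201 with hours as a covariate). The E1 enzyme Uba7, which activates Isg15, had 10.7 FPKM on and 50.1, 47.6 and 64.1 FPKM off (2.22 ± 0.23, limma adjusted p = 0.00119). Usp18, the protease that removes Isg15 and also restrains the interferon receptor, had 1.48 FPKM on and 14.4, 7.88 and 12.8 FPKM off (2.31 ± 0.42, limma adjusted p = 0.00215, and 0.0621 with hours as a covariate). Each of the 3 genes was at least 3-fold higher in every off library than in the on library. Herc6, the mouse ligase that completes the attachment, rose by 1.49 ± 0.22 (limma adjusted p = 0.00299), with 23.8% of its 50-base stretches shared with a predicted gene, Gm45193. Trim25, a ubiquitin ligase that acts on RIG-I, had 15.6 FPKM on and 20.4, 19.7 and 22.7 FPKM off, a change of 0.40 ± 0.10 that did not pass (limma adjusted p = 0.141). Ube2l6, the E2 enzyme of the same reaction and not a member, rose by 1.87 ± 0.21 (limma adjusted p = 0.00191), with 51.7 FPKM on and 162, 200.3 and 215 FPKM off.

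**Figure D3:**
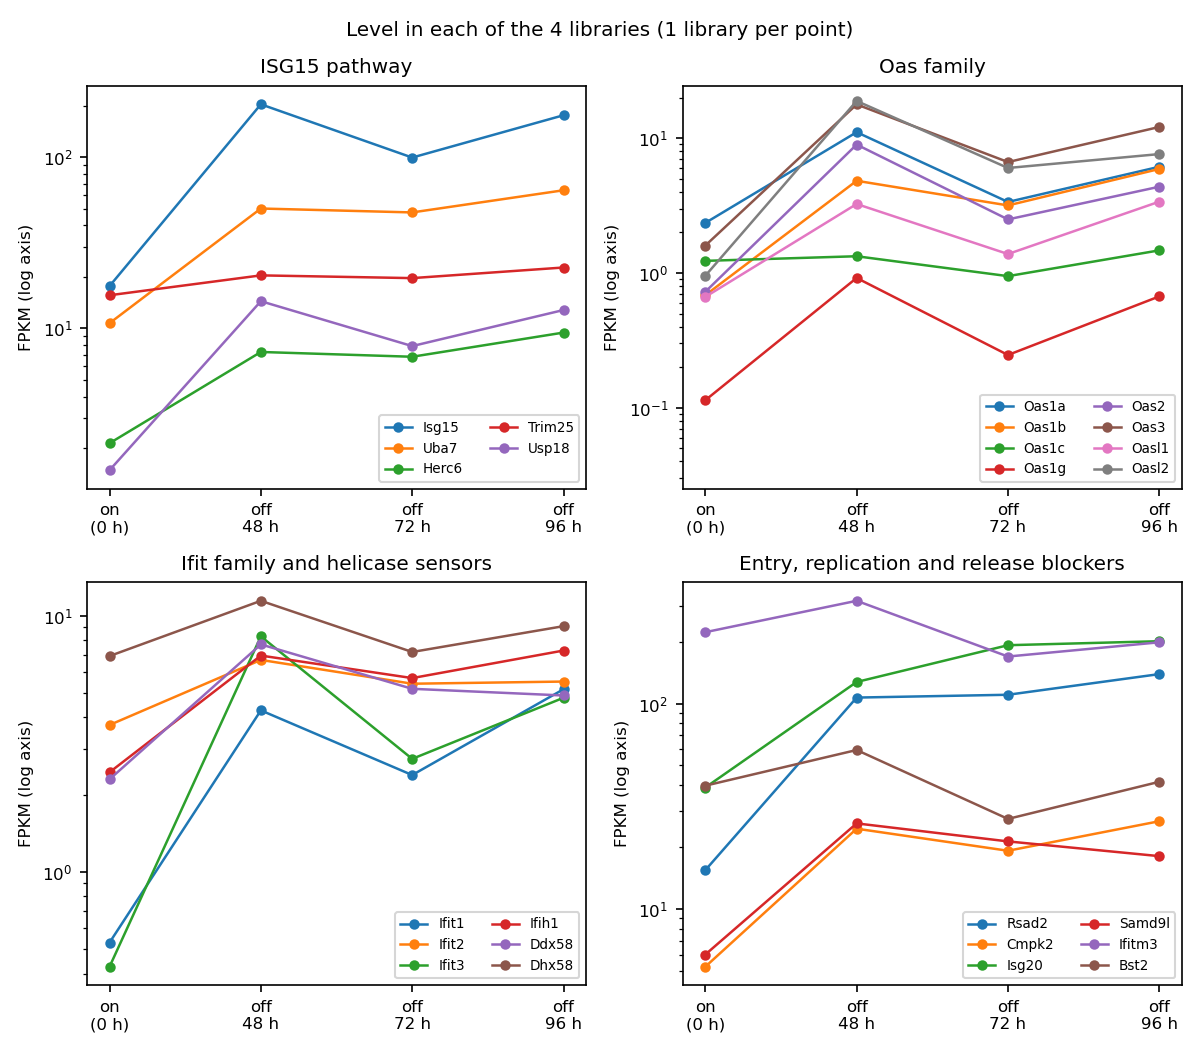
Level of 25 members in the on library (0 h) and in the off libraries at 48 h, 72 h and 96 h, in FPKM on a log axis, in 4 panels by role, with 1 library per point and so no error bars. Lines join the libraries of 1 gene. Isg15 stands at 17.7 FPKM on and 99.5 FPKM or more off, the Oas genes dip at 72 h, and Ifitm3 and Bst2 lie on both sides of their on level.

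Of the 6 genes whose products block virus entry, replication or release, 4 rose and the membrane proteins Ifitm3 and Bst2 did not pass. Rsad2 had 15.5 FPKM on and 107, 110.4 and 139 FPKM off (2.85 ± 0.21, limma adjusted p = 0.000473, the lowest among the members). Cmpk2, the kinase next to Rsad2 on chromosome 12, had 5.24 FPKM on and 24.6, 19.2 and 26.7 FPKM off (1.96 ± 0.24, limma adjusted p = 0.00163). For both genes every off library held more than 3 times the FPKM of the on library. Isg20, an RNA-degrading exonuclease, had 39.0 FPKM on and 127, 192 and 201 FPKM off (2.10 ± 0.36, limma adjusted p = 0.00243). Samd9l, a restrictor of poxviruses that also curbs growth of blood cells, had 6.005 FPKM on and 26.1, 21.3 and 18.1 FPKM off (1.69 ± 0.25, limma adjusted p = 0.00239). Isg20 was higher at each later time and Samd9l lower, with 1 library per time. Ifitm3, which stops viruses from fusing with the cell, was the most abundant member in the on library. It had 223 FPKM on and 316, 169 and 199 FPKM off, a mean change of -0.016 ± 0.47 (limma adjusted p = 0.976). Bst2 (tetherin), which holds budding viruses on the cell surface, had 39.8 FPKM on and 59.4, 27.4 and 41.6 FPKM off (0.035 ± 0.54, limma adjusted p = 0.954). For both, 48 h lay above and 72 h below the on library.

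The PARP enzymes Parp9 and Parp14, which modify proteins with ADP-ribose, rose by less. Parp9 had 8.08 FPKM on and 16.0, 12.8 and 14.1 FPKM off (0.75 ± 0.15, limma adjusted p = 0.0254), and Parp14 had 4.83 FPKM on and 14.1, 9.24 and 10.2 FPKM off (1.04 ± 0.29, limma adjusted p = 0.0170). Dtx3l, a ligase that works as a pair with Parp9, had 7.38 FPKM on and 12.8, 10.1 and 10.998 FPKM off, a change of 0.55 ± 0.16 (limma adjusted p = 0.0720). Parp9 and Dtx3l lie side by side on opposite strands with overlapping exons in GENCODE M21. Without a stated strand setting, reads from the overlap cannot be assigned to 1 of them. The same limit holds for Oas1c, Oasl1, Dhx58, Eif2ak2, Adar, Usp18, Ifi35 and Cxcl10, which overlap exons of genes outside the members on the opposite strand. Parp12 had a mean change of 0.56 ± 0.39 that did not pass (limma adjusted p = 0.168). Of the Mx GTPases, which trap viral ribonucleoproteins, Mx2 rose by 0.99 ± 0.27 (limma adjusted p = 0.0153) from a level under 1 FPKM, and Mx1 had a mean change of 0.093 ± 0.25 that did not pass (limma adjusted p = 0.782).

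Of the remaining 8 members, Ifi44 and the secreted glycoprotein Lgals3bp rose. Ifi44, which was below 1 FPKM in the on library, rose by 1.95 ± 0.37 (limma adjusted p = 0.00254). Lgals3bp had 24.7 FPKM on and 54.6, 34.8 and 52.4 FPKM off (0.89 ± 0.35, limma adjusted p = 0.0436, and 0.0531 without the 96 h library). Rtp4, a chaperone of membrane receptors, had 1.14 FPKM on and 18.4, 5.85 and 9.30 FPKM off. Its mean change of 2.38 ± 0.76 was among the largest and missed the threshold (limma adjusted p = 0.0577), although every off library was at least 3-fold higher than the on library on the log2(FPKM + 1) scale. Trim30a had 6.98 FPKM on and 18.2, 10.3 and 10.6 FPKM off, Sp100, a nuclear body protein, 34.6 FPKM on and 69.8, 43.5 and 42.3 FPKM off, and Ifi35 20.5 FPKM on and 29.3, 21.5 and 25.8 FPKM off. In these 3 genes 48 h was the highest library, and none of them passed limma in the full fit. The cell death regulator Xaf1 (0.80 ± 0.44) and the chemokine Cxcl10 (0.40 ± 0.54) did not pass limma either (adjusted p = 0.0876 and 0.445).

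**Figure D4:**
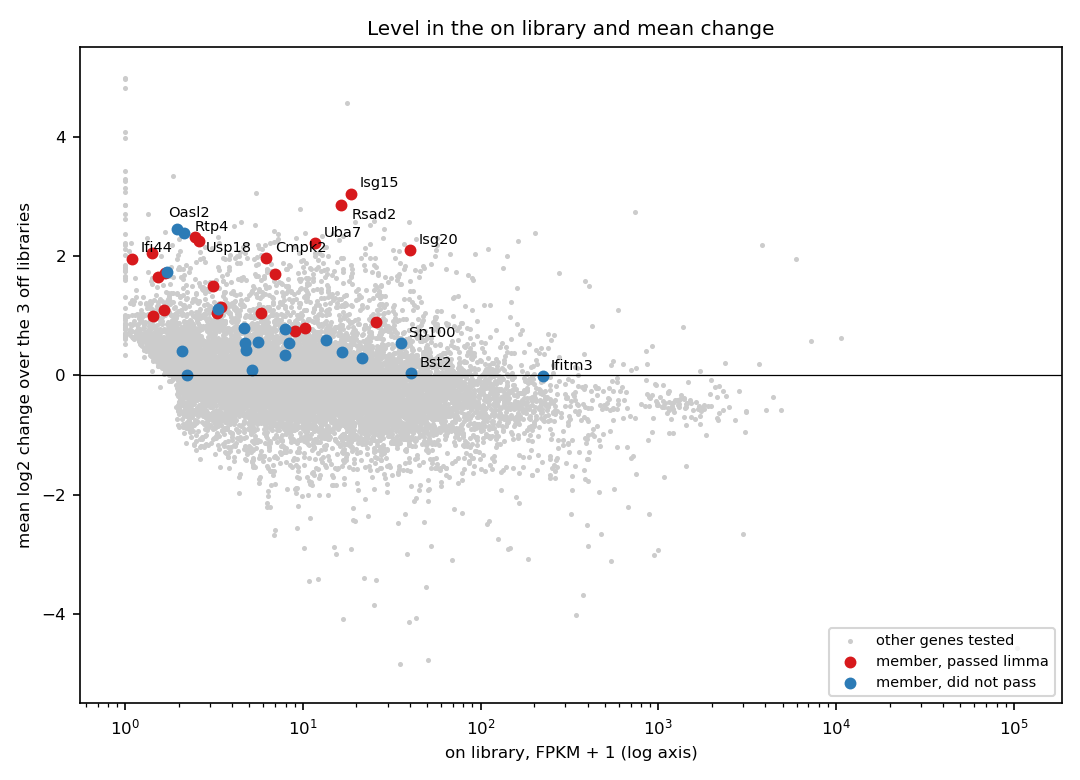
Mean log2 change over the 3 off libraries (vertical) against the level in the on library (FPKM + 1, log axis) for the genes tested, with 1 point per gene: grey for other genes, red for members that passed limma and blue for members that did not. Isg15 lies at 3.04 and Rsad2 at 2.85, and the abundant Ifitm3 and Bst2 lie near 0; 8 genes beyond 5.5 in either direction are not drawn.

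The members also differed by time. The 72 h library was the lowest of the 3 off libraries in 36 of 42 members, against 18.6% of genes tested, and the highest in none, against 29.1%. The 48 h library was the highest in 29 of 42, against 28.1%, and the 96 h library in 13, against 42.8%. Among the 33 members at 1 FPKM or more in the on library, 72 h was the lowest in 28 (18.3% of genes of that level) and 48 h the highest in 24 (28.4%). Between the off libraries the on level of a gene drops out, but the tables were joined through the on column and the comparison rests on that step. The members had a median difference of -0.60 for 72 h minus 48 h and of 0.34 for 96 h minus 72 h on the log2 scale. All genes tested had 0.06 and 0.0019. With 1 library per time, these differences have no replicate check. The subgroups varied in how far they dipped. The Oas family had median changes of 1.82, 0.77 and 1.52 at 48 h, 72 h and 96 h and the Ifit family of 1.78, 1.15 and 2.01. The Isg15 pathway had 2.12, 1.84 and 2.47, and the blockers of entry, replication and release 1.82, 1.68 and 1.80. The sensors had 0.996, 0.50 and 0.74, the PARP group 0.93, 0.50 and 0.65, the Mx pair 0.83, 0.39 and 0.39, and the remaining members 1.15, 0.40 and 0.71. At 72 h all 8 Oas genes and all 5 genes of the Isg15 pathway were at their lowest off level, and 3 of the 6 blockers were. Differences between subgroups of 2 to 8 genes were not tested. The subgroup medians also depend on the pseudocount and the filter. Of 24 medians, 18 moved with a pseudocount of 5 FPKM and 12 with 0.1 FPKM, by at least their SD over the 3 times. With only genes reaching 1 FPKM in the on library, the Oas median at 72 h was 0.38 (3 genes). The Ifit median at 96 h was then 0.46 (1 gene).

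**Figure D5:**
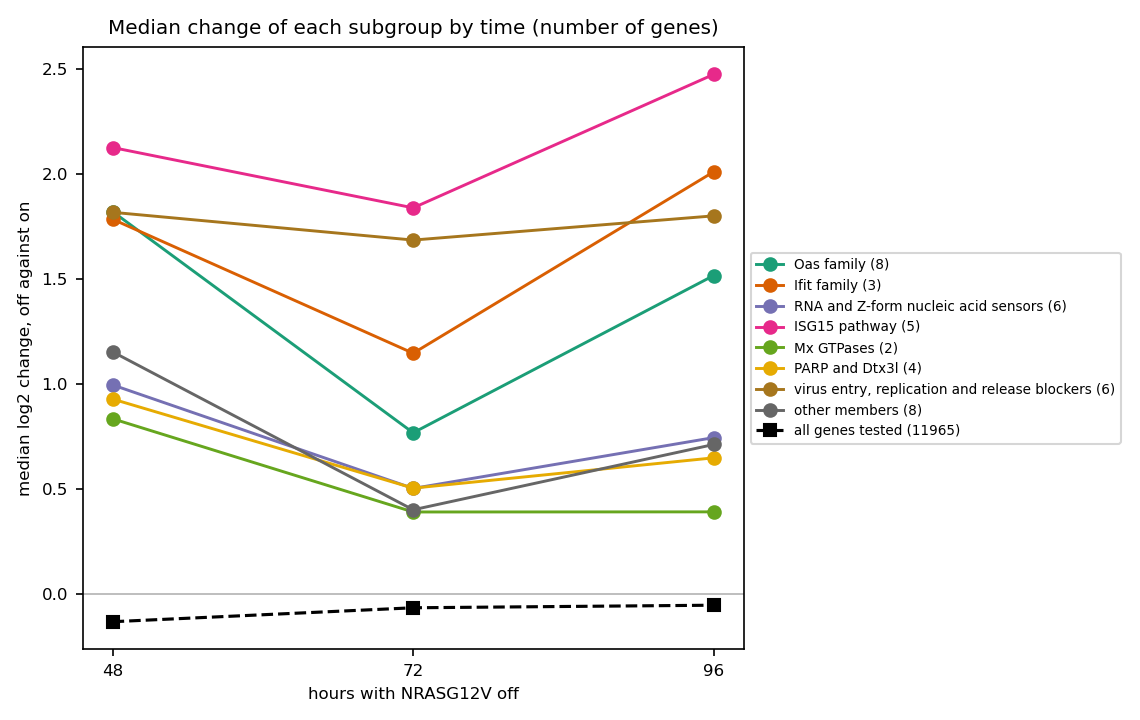
Median log2 change of each subgroup against the on library at 48 h, 72 h and 96 h off, with the number of genes in brackets, and of all 11965 genes tested (dashed). Points are medians over genes of 1 library pair and carry no replicate error. All 8 subgroups lie above the dashed line at each time, with the lowest point of 7 of them at 72 h; the Mx pair is equally low at 72 h and 96 h.

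Upstream of these genes, no interferon gene was measured at 1 FPKM. Of 19 ligand genes found, 14 were listed at 0 in every library, Ifnb1 among them. Ifng, the type II interferon, was listed at 0 in the on library and had 0.171, 0.188 and 0.287 FPKM off, levels too low for the test. Depth limits this: such levels rest on few reads, and bulk RNA does not show interferon made elsewhere in the animal. Of 9 receptor and Jak kinase genes, the interferon lambda receptor Il28ra rose by 1.43 ± 0.34 (limma adjusted p = 0.00693), Ifngr1 fell by 0.82 ± 0.15 (limma adjusted p = 0.0226) and 7 did not pass. Ifnar1, a subunit of the type I receptor, had 12.5 FPKM on and 10.004, 10.6 and 8.83 FPKM off. Of 11 Stat and Irf factors 3 rose, 2 fell and 6 did not pass, where 11.8% of all genes tested rose and 15.2% fell. Irf7, which amplifies type I interferon, and Irf9 were among those that rose, and Irf5 and Irf8 fell. Irf7 had 7.92 FPKM on and 53.2, 25.6 and 42.3 FPKM off (2.15 ± 0.53, limma adjusted p = 0.00453), with the same dip at 72 h. Irf9 rose by 1.17 ± 0.19 (limma adjusted p = 0.00646), whereas Stat2, with a mean change of 0.67 ± 0.23, did not pass (limma adjusted p = 0.0527). Irf5 fell by 1.52 ± 0.30 and Irf8, a factor of monocytes and dendritic cells, by 0.85 ± 0.25 (limma adjusted p = 0.00486 and 0.0342).

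Other interferon-related lists were counted in the same test, in which 11.8% of all genes rose and 15.2% fell. They too were chosen with earlier results of these data known. Listed genes below 1 FPKM in the on library were tested only because an off library was higher, which favours a rise. Of 16 interferon-inducible GTPases 13 reached 1 FPKM, of which 10 rose and none fell, led by Irgm2 (2.12 ± 0.16) and Gbp8 (1.95 ± 0.10), with a list median of 1.05 beside -0.08 for all genes tested. Of 10 genes of MHC class I presentation 2 fell, a share near that of all genes, and the other 8 did not pass, with a median of -0.51. Psmb8, an interferon-induced proteasome subunit, fell by 1.36 ± 0.38 (limma adjusted p = 0.0123). Of 54 other interferon-induced genes tested, 14 rose and 4 fell, with Slfn4 (1.82 ± 0.53) and Pml (1.47 ± 0.29) among the rises and Ifi30 (-1.22 ± 0.32) and Ifitm2 (-1.09 ± 0.26) among the falls. Of 14 sensing adaptors and kinases 2 rose, 6 fell and 6 did not pass. The DNA-sensing adaptor Tmem173 (STING) fell by 1.39 ± 0.24 (limma adjusted p = 0.00442).

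Marker genes of cell types were counted in the same test, in which 11.8% of all genes rose and 15.2% fell. Lists with counts near these shares are not read as a shift. The marker lists too were chosen with earlier results of these data known. Marker genes below 1 FPKM in the on library were tested only through a higher off library, which favours a rise. All 19 erythroid markers rose, their summed level without globins standing at 1054 FPKM on and at 3545, 5226 and 5596 FPKM off. Of 15 pan-leukocyte genes 8 fell and none rose, with 4200.4 FPKM on and 2985, 2372 and 1815 FPKM off. Of 11 neutrophil genes 5 rose (25605 FPKM on, and 45271, 40697 and 29119 FPKM off), and of 11 natural killer genes 3 rose and 1 fell (69.0 FPKM on, and 58.2, 46.8 and 52.2 FPKM off). Of 19 monocyte and macrophage genes 2 rose and 4 fell (1044 FPKM on, and 781, 676 and 601 FPKM off). Markers of plasmacytoid dendritic cells, the main makers of type I interferon, summed to 27.9 FPKM on and 26.7, 23.7 and 23.6 FPKM off, with 2 of 8 tested up and 2 down. Of 11 conventional dendritic cell genes 3 rose (5257 FPKM on, and 5833, 4096 and 3999.9 FPKM off), and of 10 endothelial and stromal genes tested 5 rose and 1 fell (282 FPKM on, and 417, 447 and 285 FPKM off). Of 5 T cell genes tested 3 rose (8.18 FPKM on, and 25.6, 19.4 and 17.5 FPKM off), 4 of the 9 found staying below 1 FPKM throughout. Of 4 B cell genes tested 1 rose and 1 fell (21.4 FPKM on, and 15.1, 12.6 and 12.2 FPKM off), with Pax5 listed at 0 in every library. The part of these shifts in the members' changes was not tested. Total depth is unknown from FPKM. Low values step with whole reads and put the off libraries at 1.15, 1.04 and 1.18 times the reads per FPKM of the on library. FPKM of the on library differed between the tables (factors of 1.036, 0.984 and 0.981), so they were not scaled by its mapped total alone. These ratios are not read as depth.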

How the data were processed

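Total RNA of 4 libraries was sequenced on Illumina libraries, per the labels' protocols. Gene levels are FPKM in 4 tables that the authors deposited: 3 pair the on library with 1 off library each, and 1 with a combined off value. TopHat2 2.0.4, Cuffdiff and build mm9 are named in the submitters' processing notes. No annotation, strandedness, read length or Cuffdiff version is given in the sources used here. Each table was scaled separately, so the 3 tables were put on 1 scale through their shared on column, whose values matched within 0.1% after 1 factor per table for at least 99.9% of genes; levels set across times rest on that step.

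Changes were computed with a pseudocount of 1 FPKM for genes reaching 1 FPKM in any column. limma 3.58.1 (R 4.3.3) was fitted to log2(FPKM + 1) with trend and robust settings, off against on, with Benjamini-Hochberg adjustment at 0.05. A run on simulated data gave all 4 libraries the same spread, so it could not check whether the on library varies like the off libraries. SDs are over the 3 off libraries. The members and lists were chosen with earlier results of these data known. Members reaching 10 FPKM in any library, and all Oas, Ifit and sensor genes, are given by library. Some pathway genes are not reported here. Pathway genes were named from the receptor, Stat and Irf lists and among calls of at least 2-fold; Ifnb1, Ifng, Pax5 and the Ifit3 promoter were chosen after their values were seen. Alternatives were other pseudocounts, filters and scalings, limma settings, and leaving out each off library. Shared stretches were 50-base words of GENCODE M21 transcripts.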

Additional observations from a re-analysis of the deposited data

Results flagged for a closer look

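Members that lay above the on library at 1 time and below it at another stood out: the cause was not tested, nor was the difference between times, since each time has 1 library. Oas1c had a log2 change of 0.064 at 48 h, -0.20 at 72 h and 0.15 at 96 h. Mx1 had 0.38, -0.11 and 0.0090 at these times. Ifitm3 had 0.51, -0.39 and -0.16, and Bst2 had 0.57, -0.52 and 0.061. Cxcl10 had 0.93, -0.15 and 0.41. None of the 5 genes passed limma over the 3 off libraries (Benjamini-Hochberg adjusted p at least 0.445), and in each the 48 h value was positive and the 72 h value negative.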

How the results depend on the processing

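No paired analysis was possible because each group holds 1 library and the labels give no replicate numbers. Beside the 21 members that rose in the full fit, 17 to 28 were called when 1 off library was left out: 24 without 48 h, 28 without 72 h and 17 without 96 h, where 15.7%, 9.39% and 12.7% of all genes rose. In each such fit the lone on library is assumed to vary like the off libraries. These fits, and the fit with hours as a covariate, leave less spread per gene to judge a call by than the full fit. Calls gained or lost in them are therefore a weak check. Ifit3, Oas3, Oasl1 and Lgals3bp lost their call without 96 h, and Oasl1 also without 48 h; no other called member did. Without any filter on low values limma called 0 members as higher and 281 genes in all, while 17 members had an unadjusted p under 0.05; that fit holds all 23235 genes. A pseudocount of 5 FPKM left 14, 6 and 11 members at least 2-fold higher at 48 h, 72 h and 96 h, with medians of 0.78 at 48 h and 0.60 at 96 h against 1.29 and 0.95 for the 41 tested; it lowers the change of low genes by construction. In limma this pseudocount ended the calls of Ifit3, Oas3 and Oasl1 (adjusted p = 0.118, 0.0561 and 0.0646). Without trend and robust settings Lgals3bp and Oasl1 lost their call (limma adjusted p = 0.0623 and 0.0700), and Oasl2 and Rtp4 passed, as they did with a pseudocount of 0.1 FPKM. Only members at 1 FPKM in the on library gave 10 at 72 h and 13 at 96 h, from fewer genes. Hours as a covariate called 6032 genes instead of 3228, with 20.6% of all genes up, and 20 members, 14 of them among the 21. With the median change of genes expressed in every library (-0.15, -0.08 and -0.07 by time) set to 0, limma called 1722 genes up and 1245 down, against 1409 and 1819, and 22 members; Rtp4 and Adar passed and Oasl1 did not (limma adjusted p = 0.0453, 0.0481 and 0.0528). Oas2, Oasl2, Rtp4 and Trim30a passed without 48 h and also without 72 h, and Oas1a, Cxcl10 and Xaf1 without 72 h. With hours as a covariate, Adar, Dtx3l, Ifit2, Sp100, Trim25 and Trim30a passed. Among these alternatives, signs turned for 4 uncalled members and 1 subgroup, and the cause was not tested. Ifitm3 was at 0.085 with the median set to 0 and at 0.085 with the authors' combined value. With 1 off library left out, Ifitm3 ranged from -0.28 to 0.17, Bst2 from -0.23 to 0.31, Mx1 from -0.050 to 0.19 and Oas1c from -0.066 to 0.11. The Mx median at 72 h was -0.11 when a stricter filter left Mx1 alone. FPKM hold no counts, so no counting error can be given.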
